A study of Mus musculus with 6 samples.

Results

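The genes described here encode the cytosolic factors that start and carry out protein synthesis, the eukaryotic translation initiation factors (eIF1 to eIF6) and elongation factors (eEF1 and eEF2). They were taken by symbol from the table of transcript levels, as every row beginning with Eif1 to Eif6, Eef1 or Eef2, leaving out the eIF2 kinases (Eif2ak), the eIF4E-binding proteins (Eif4ebp), the eEF2 kinase Eef2k and the Y-linked Eif2s3y. This gave 66 of 52636 rows, among them 7 pseudogenes, 4 lysine methyltransferases that modify elongation factors and Eif2c5, an older symbol of an Argonaute gene. The levels came from RNA sequencing of neutrophils of mouse bone marrow, from C57BL/6N mice aged 10 weeks, in 3 libraries labelled WT and 3 labelled KO, here LRP5-KO. The LRP5-KO mice had the genotype LRP5f/f/Lyz2Cre+, in which a Cre recombinase driven by Lyz2, a gene of myeloid cells, acts on floxed alleles of Lrp5, so that deletion takes place in monocytes and macrophages as well as neutrophils and its extent depends on Cre activity. LRP5 is a member of the LDL receptor family, known as a Wnt co-receptor and studied here as a transporter of polyunsaturated fatty acids. The comparison bears on whether translation and mTOR-linked pathways differ in LRP5-null neutrophils.

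Translation of most mRNAs starts when eIF4E binds the 5′ cap, eIF4G joins it to the RNA helicase eIF4A, and the small ribosomal subunit, held by eIF3 and loaded with initiator tRNA by eIF2, scans to a start codon that eIF1, eIF1A and eIF5 help to select. eIF5B then joins the large subunit, eEF1A brings each aminoacyl-tRNA and eEF2 moves the ribosome along. Phosphorylation of eIF2 lowers its activity by blocking its exchange factor eIF2B, mTORC1 frees eIF4E from its binding proteins, and many mRNAs of translation factors carry a 5′ terminal oligopyrimidine (TOP) tract through which mTORC1 controls their own translation. Neutrophils leave the bone marrow with much of their protein already packed in granules, and they contain little RNA.

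Levels are given in TPM, which corrects for transcript length and in which each library sums to 1000000 over all genes. Because the values are not counts, their counting error is unknown and the error given is the spread between libraries. The labels do not say that the libraries came from separate animals, so p-values measure only the spread between these samples, which may be technical. In bulk RNA, fewer cells of a type and less RNA per cell cannot be told apart. Sequencing gave 249841492 to 340580330 reads per library, which the methods call single-end and the read summary paired-end, so whether mates were counted singly is not settled. Lrp5 itself was not lower under the KO label, at 1.12, 1.31 and 1.42 TPM in WT and 1.68, 1.77 and 2.07 TPM in LRP5-KO libraries (limma log2 fold change 0.31, adjusted p = 0.136), so every direction below rests on the labels. Lyz2, the gene that carries Cre, was at 24797 to 26791 TPM in the libraries labelled WT and 13360 to 14027 TPM in those labelled LRP5-KO (limma log2 fold change -0.91, adjusted p = 0.00351). Reads of ribosomal RNA made up 1.20% and 1.30% of WT replicates 1 and 2, 3.30% of WT replicate 3 and 2.69% to 2.98% of the LRP5-KO libraries, and intronic reads made up 7.78% to 9.0% and 10.62% to 11.23%. WT replicate 3 therefore stood with the LRP5-KO libraries in its ribosomal share, and results are given below with and without it where it changed them.

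No translation factor gene passed the threshold of an adjusted p under 0.05 between the groups. Of the 51 members with a mean of at least 1 TPM, 0 were called by limma with Benjamini-Hochberg adjustment over 9775 genes, where 0.532% of all genes tested were called, 26 higher and 26 lower in LRP5-KO. The smallest adjusted p of a member was 0.111, for Eif1a. At an unadjusted p under 0.05 there were 8 members (15.7%), 4 higher and 4 lower, against 23.5% of all genes tested. The 3 libraries of each group did not overlap for 11 members (21.6%), 7 higher and 4 lower in LRP5-KO, against 29.7% of all genes tested, 17.4% higher and 12.3% lower. The log2 fold change was positive for 32 members and negative for 19 (62.7% positive, against 58.8% of all genes), with a median of 0.04, the same as over all genes. It was larger than 0.3 in either direction for 5 members (9.8%), against 15.3% of all genes. Without WT replicate 3, 7 members were called by limma (Eif1a, Eif2s2, Eif3i, Eif3j1, Eif3k, Eif4g3 and Eif5), or 13.7%, against 19.6% of all genes tested.

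**Figure D1:**
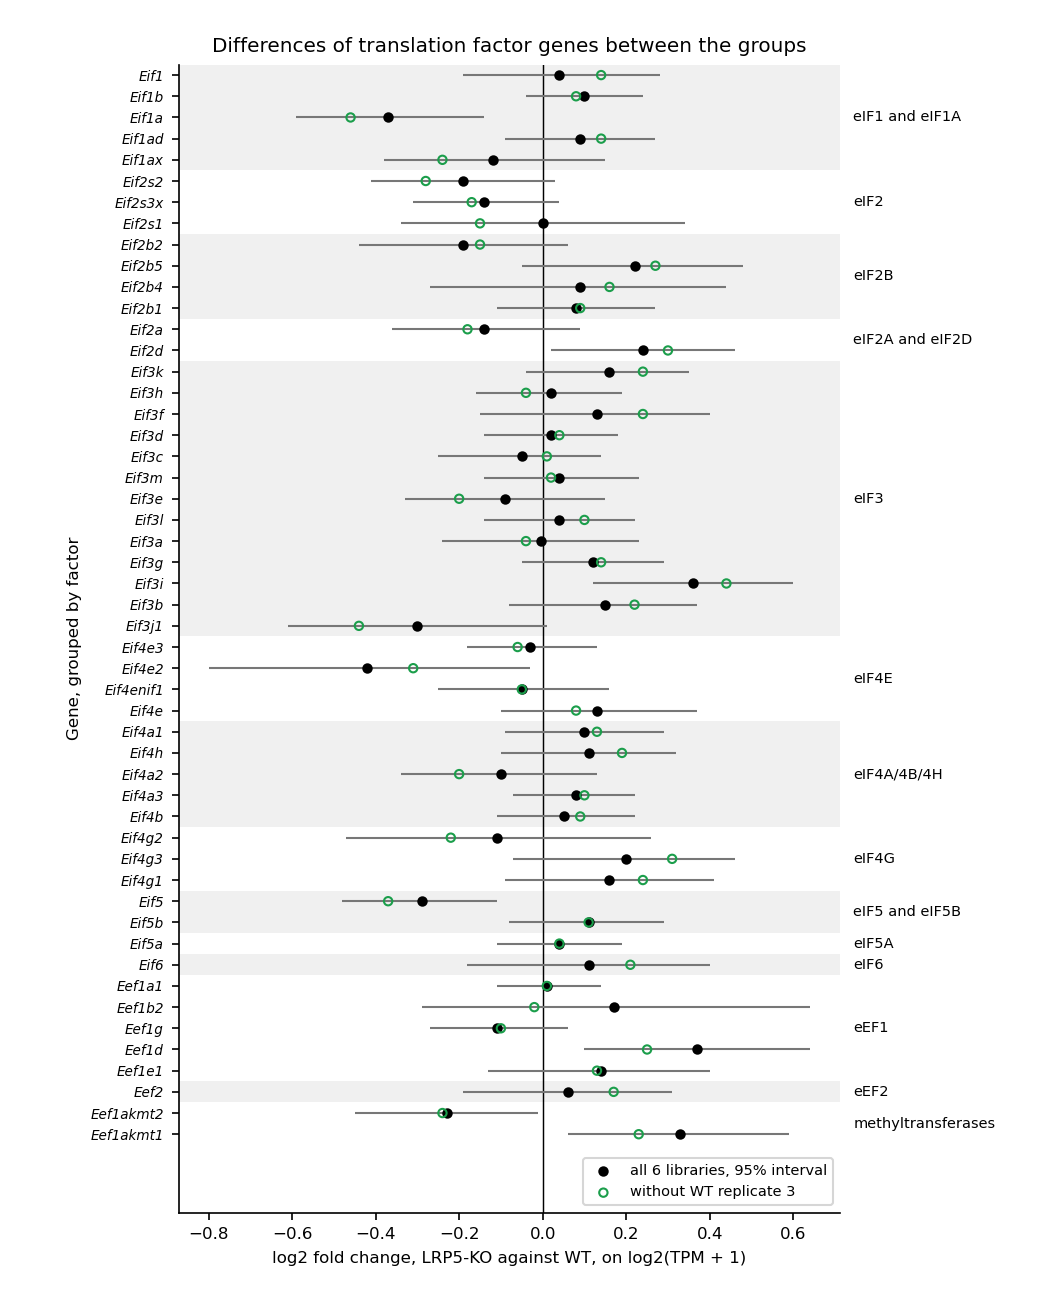
Log2 fold change of each of the 51 translation factor genes tested, LRP5-KO against WT, on the log2(TPM + 1) scale, with its 95% interval from limma (black) and the value without WT replicate 3 (green), grouped by factor. Most intervals span 0, and the values run from -0.42 for Eif4e2 to 0.37 for Eef1d.

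The mean levels of the members tested ran from 1.34 to 869.4 TPM. Of these, 10 had a mean of at least 100 TPM, 27 lay between 10 and 100 TPM and 14 between 1 and 10 TPM. Eef1a1, which encodes the carrier of aminoacyl-tRNA and is known for high expression in most tissues, was the highest, at 873.4, 863.8 and 857.9 TPM in WT and 863.4, 892.1 and 865.7 TPM in LRP5-KO libraries (log2 fold change 0.01, 95% interval -0.11 to 0.14). The groups overlapped, and its spread was among the smallest, with a coefficient of variation of 0.903% in WT. Eif1, whose product keeps the scanning ribosome open until a start codon is met, followed at 396.1, 451.8 and 523.4 TPM in WT and 466.8, 455.9 and 480.4 TPM in LRP5-KO (0.04, interval -0.19 to 0.28). WT replicates 1 and 3 were the lowest and highest of the 6 libraries for this gene. Eif5a, the hypusine-containing factor that helps ribosomes through difficult peptide bonds, came next at 242.3, 268.6 and 254.5 TPM in WT and 264.2, 258.6 and 265.3 TPM in LRP5-KO (0.04, interval -0.11 to 0.19). These 3 genes made up 42.2% to 44.2% of the summed level of all members, which was 3581 to 3715 TPM in WT and 3611 to 3776 TPM in LRP5-KO libraries, with overlap.

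**Figure D2:**
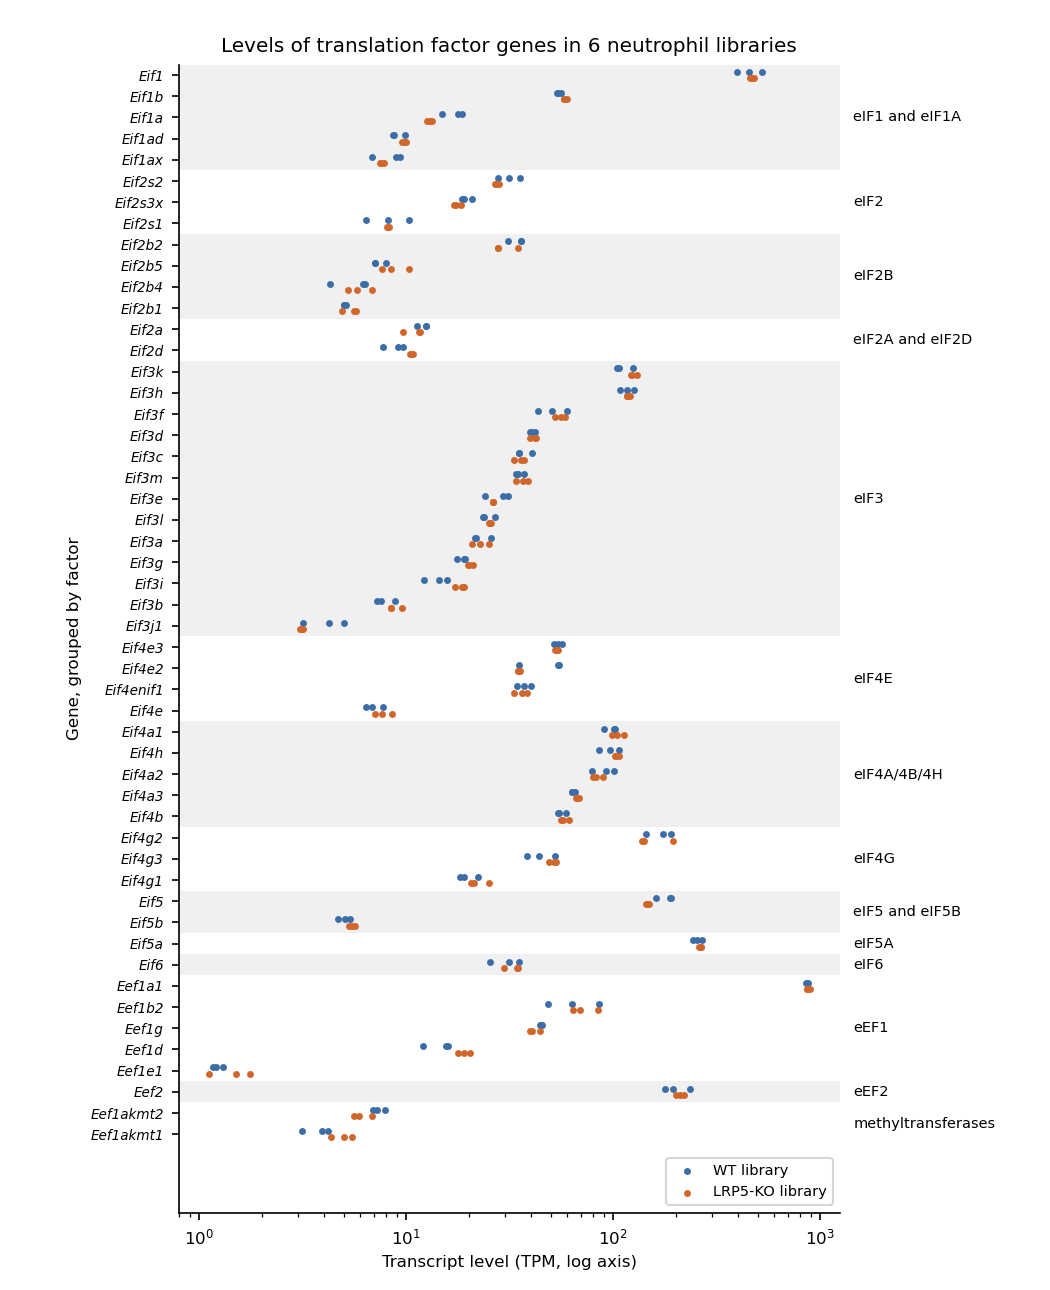
Transcript level of the 51 translation factor genes tested in each of the 3 WT (blue) and 3 LRP5-KO (orange) libraries, in TPM on a log axis, grouped by factor. Levels run from 1.34 TPM (Eef1e1) to 869.4 TPM (Eef1a1) on average, and the 2 groups do not overlap for 11 of the 51 genes.

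The 15 members under a mean of 1 TPM were not tested. Among them 7 were listed at 0 in all libraries, namely the tissue-restricted paralogues Eef1a2 (muscle and neurons) and Eif4e1b (oocytes), Eif2c5 and the pseudogenes Eif1-ps3, Eif3s6-ps1, Eif3s6-ps2 and Eif3s6-ps4. The other 8 were Eif2b3, the gamma subunit of eIF2B, at 0.30 to 0.784 TPM, and Eif4a-ps4, Eif1-ps1, Eef2kmt, Eif5a2, Eif3j2, Eif5al3-ps and Eef1akmt3, at means of 0.288 TPM or less. Where a factor has a near-identical paralogue or processed pseudogene, reads may be divided between the copies, and such values are uncertain. Several members also hold small nucleolar RNAs in their introns on the same strand (Eif4a1, Eif4a2, Eef2, Eef1b2, Eif5, Eif4g1, Eif4g2 and Eif3a).

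Promoter sequence was examined because TOP tracts are the known link of this gene group to mTORC1. RefSeq promoters (GRCm38.p6, from 250 bases before to 50 bases from the annotated start) matched 41 of the 51 members tested, and a gene was counted if any of its listed promoters held the motif. The tract sought was an unbroken run of C and T on the sense strand that begins with C and is at least 7 bases long. It was counted from its first C between 10 bases before and 40 bases after the annotated start, also where C or T came directly before that base. In Eif4e, Eef1akmt2 and Eif2b5 the run reached further upstream than this window. Such a tract was present in 17 of the 41 (41.5%), against 26.5% of the 7266 genes tested with a promoter. Counted promoter by promoter, which is not a like measure, it was present in 23.9% of all 32851 promoters. A stricter form, C at the start base itself followed by at least 4 C or T, was present in Eif3f and Eif2s3x (4.88%, against 3.07% of genes tested). The following 3 stretches show tracts, in capitals, of the 2 members with the strict form and of another eIF3 subunit.
Eif3f, chr7:108934406-108934435, plus strand: ctaggCTCTCTCTCTTTCTCggcaagatgg
Eif2s3x, chrX:94212628-94212657, minus strand: attttCCTTTTCTCTCCgagcaagatggct
Eif3l, chr15:79075222-79075251, plus strand: ttccgCTCTCTCCCacgggcttctggagcg
In Eif3f the tract covers 15 bases and begins 4 bases before the annotated start, and in Eif2s3x it covers 12 bases and begins 1 base before it. In Eif3l it begins at base 5 of the transcript as annotated. These are matches of letters at annotated starts, and the starts used in neutrophils were not measured. The 17 members with a tract had a median of 0.04 in log2 fold change and the other matched members one of 0.08.

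The E-box CACGTG, the palindromic site bound by Myc, Max and related factors, was present in 10 of the 41 members (24.4%), against 11.9% of genes tested. Counted promoter by promoter, which is not a like measure, it was present in 7.15% of all promoters. The other motifs were searched on both strands. The ETS-type motif CCGGAAG was present in 14 members (34.1%, against 23.4% of genes tested), TATAAA in 4 (9.76%, against 8.34%) and CCAAT in 13 (31.7%, against 43.1%). The cyclic AMP response element TGACGTCA was present in 1 (2.44%, against 3.85%), namely Eef2. The E-boxes, in capitals, are shown for members from initiation and elongation.
Eif3k, chr7:28981915-28981944, minus strand: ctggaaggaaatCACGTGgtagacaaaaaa
Eif4g1, chr16:20672661-20672690, plus strand: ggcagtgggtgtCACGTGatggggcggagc
Eef2, chr10:81176576-81176605, plus strand: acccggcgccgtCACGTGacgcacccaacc
They lie 44, 54 and 43 bases before the annotated starts of Eif3k, Eif4g1 and Eef2. The median log2 fold change was 0.11 for the members with an E-box and 0.04 for those without, and none of the former was called in the comparison of all 6 libraries. Against WT replicate 3 alone the values of the members with an E-box ran from -0.17 for Eef2 to 0.24 for Eif4e. Those of Eif3f, Eif4h, Eif3k and Eif4g1 were also negative there.

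Start codon selection held the 2 members of smallest p, both lower in LRP5-KO libraries. Eif1a encodes eIF1A, which occupies the A site of the scanning ribosome, and lies on chromosome 18 from 46757358 to 46769879 on the plus strand of NCBIM37 (mm9). It was at 18.7, 17.8 and 14.9 TPM in WT and 12.6, 13.1 and 13.3 TPM in LRP5-KO libraries, without overlap, WT replicate 3 being the nearest to LRP5-KO. The means were 17.1 ± 1.98 and 13 ± 0.370 TPM (SD, n = 3 each), and the log2 fold change was -0.37 (95% interval -0.59 to -0.14, limma adjusted p = 0.111). Without WT replicate 3 it was -0.46 with a limma adjusted p of 0.0136, and the adjusted p reached 0.333 across the alternatives. Its X-linked homologue Eif1ax, which encodes a nearly identical protein, was at 6.83 to 9.35 TPM in WT and 7.47 to 7.78 TPM in LRP5-KO, with overlap. Eif1a made up 67.6%, 65.6% and 68.6% of the sum of both in WT and 62.6%, 62.7% and 64.1% in LRP5-KO libraries. This share did not overlap between the groups, WT replicate 3 lying here with the other WT libraries.

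Eif5 encodes the GTPase-activating protein of eIF2 and was the fifth most abundant member (chromosome 12, 112776312 to 112794270, plus strand, NCBIM37). The WT libraries held 188.5, 190.7 and 161.4 TPM and the LRP5-KO libraries 149.7, 144.3 and 145.0 TPM, again without overlap and with WT replicate 3 between the others. The means were 180.2 ± 16.3 and 146.3 ± 2.91 TPM (SD, n = 3 each), a log2 fold change of -0.29 (interval -0.48 to -0.11, limma adjusted p = 0.119). Without WT replicate 3 the value was -0.37 and limma called it (adjusted p = 0.0129, up to 0.343 across the alternatives). Against WT replicate 3 alone it was -0.14. Eif5b, the subunit-joining GTPase, was much lower, at 4.67 to 5.35 TPM in WT and 5.32 to 5.67 TPM in LRP5-KO. Because Eif5 makes up most of it, the sum of both genes was 193.8, 195.4 and 166.5 TPM in WT and 155.0, 149.8 and 150.7 TPM in LRP5-KO, a ratio of 0.820, the lowest of any factor. Eif1b, a paralogue of Eif1, with 87.6% to 90.8% of their joint level in Eif1, was slightly higher in LRP5-KO, at 56.0, 54.4 and 53.3 against 58.1, 58.0 and 59.5 TPM (0.10, interval -0.04 to 0.24), also without overlap.

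**Figure D3:**
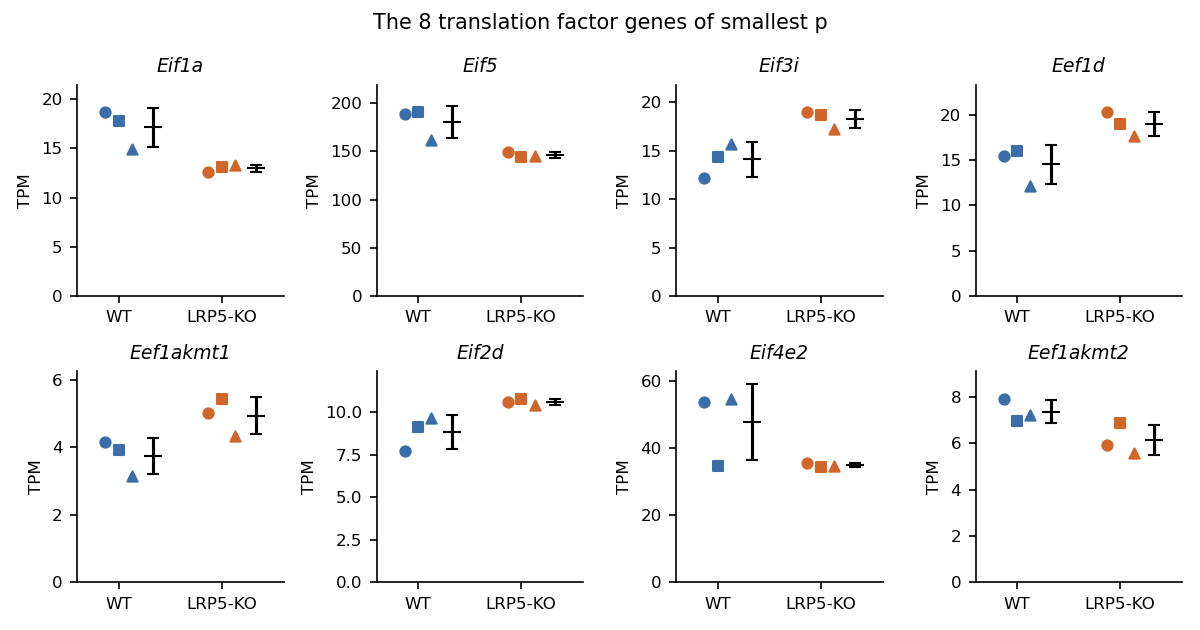
TPM of the 8 translation factor genes of smallest p in each WT (blue) and LRP5-KO (orange) library. Circles, squares and triangles are replicates 1, 2 and 3, and the bar beside them is the mean ± SD of the 3 libraries. Eif4e2 is the only one of the 8 whose groups overlap, through WT replicate 2 at 34.9 TPM.

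The 3 subunits of eIF2, which carries the initiator tRNA, had log2 fold changes at or below 0, with a median of -0.14 (-0.02 against WT replicate 3 alone), and none was called. Eif2s2, the beta subunit and the most abundant of them, was at 35.4, 31.5 and 27.8 TPM in WT and 27.2, 28.0 and 26.9 TPM in LRP5-KO (-0.19, interval -0.41 to 0.03, limma adjusted p = 0.269). WT replicate 3 lay within the LRP5-KO range, and without it limma gave -0.28 with an adjusted p of 0.0447 (up to 0.907 across the alternatives). Eif2s3x, the gamma subunit that binds GTP and tRNA, was at 20.7, 19.1 and 18.6 TPM in WT and 17, 17.5 and 18.3 TPM in LRP5-KO, without overlap (-0.14, interval -0.31 to 0.04). Its promoter holds the TOP-like tract shown above. Eif2s1, the alpha subunit whose phosphorylation starts the integrated stress response, was at 10.3, 8.13 and 6.38 TPM in WT and 8.04, 8.13 and 8.23 TPM in LRP5-KO (interval of the log2 fold change -0.34 to 0.34). Here the WT libraries alone spread over the range, and LRP5-KO lay in its middle. The summed level of the 3 subunits was 66.4, 58.7 and 52.7 TPM in WT and 52.3, 53.6 and 53.5 TPM in LRP5-KO, WT replicate 3 again lying among the latter.

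eIF2B, the exchange factor that reloads eIF2 with GTP, had 4 subunit genes tested, 3 positive and 1 negative, with a median of 0.08 (0.0031 against WT replicate 3 alone and 0.0035 without WT replicate 1) and overlap between groups for all 4. Eif2b2, the beta subunit, was the most abundant at 35.9, 31.1 and 35.7 TPM in WT and 27.9, 27.7 and 34.5 TPM in LRP5-KO (-0.19, interval -0.44 to 0.06). Eif2b5, the catalytic epsilon subunit, was at 7.09, 7.08 and 8.0 TPM in WT and 7.66, 10.3 and 8.43 TPM in LRP5-KO (0.22, interval -0.05 to 0.48). Eif2b1 and Eif2b4 lay between 4.28 and 6.87 TPM, and Eif2b3 was under 1 TPM, so the subunit transcripts were far from equal in level. eIF2A and eIF2D can deliver initiator tRNA without eIF2 or act in reinitiation. Eif2d was at 7.73, 9.15 and 9.67 TPM in WT and 10.6, 10.8 and 10.4 TPM in LRP5-KO, without overlap (0.24, interval 0.02 to 0.46, limma adjusted p = 0.183). Eif2a, which despite its symbol is not a subunit of eIF2, was at 12.4, 12.5 and 11.3 TPM in WT and 11.7, 9.61 and 11.5 TPM in LRP5-KO, with overlap (-0.14, interval -0.36 to 0.09).

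eIF3, the largest initiation factor and the scaffold of the scanning ribosome, had 13 subunit genes tested, of which 9 were positive and 4 negative with a median of 0.04 (-0.0039 against WT replicate 3 alone). None was called, and 2 (Eif3i and Eif3g) did not overlap between groups, both higher in LRP5-KO, as were 17.4% of all genes tested. Eif3i, a WD-repeat subunit of the module that also holds eIF3b and eIF3g, was at 12.2, 14.4 and 15.7 TPM in WT and 19.0, 18.7 and 17.2 TPM in LRP5-KO libraries (chromosome 4, 129269204 to 129277892, minus strand, NCBIM37). Its means were 14.1 ± 1.75 and 18.3 ± 0.985 TPM (SD, n = 3 each), a log2 fold change of 0.36 (interval 0.12 to 0.60, limma adjusted p = 0.124). Without WT replicate 3 it was 0.44 (limma adjusted p = 0.0263, up to 0.344 across the alternatives). The partners of eIF3i in this module had smaller values in the same direction, 0.12 for Eif3g (17.6, 19.2 and 19.1 TPM in WT, 20.1, 19.8 and 21.1 TPM in LRP5-KO) and 0.15 for Eif3b (7.26 to 8.84 and 8.41 to 9.54 TPM).

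The mean levels of the eIF3 transcripts ran from 118.6 TPM for Eif3k and 117.8 TPM for Eif3h to 8.34 TPM for Eif3b and 3.63 TPM for Eif3j1. Spearman's correlation of level with transcript length, by which TPM divides, was -0.39 over these 13 genes, a description across genes that share the same libraries. Eif3k was at 107.0, 104.6 and 125.2 TPM in WT and 121.3, 129.6 and 123.9 TPM in LRP5-KO (0.16, interval -0.04 to 0.35, limma adjusted p = 0.302), and WT replicate 3 lay among the LRP5-KO libraries. Without that library limma gave 0.24 with an adjusted p of 0.0382 (up to 0.982 across the alternatives), and against it alone -0.0039. Eif3j1, the loosely bound subunit that sits in the mRNA channel, was at 5.01, 4.23 and 3.16 TPM in WT and 3.06, 3.13 and 3.19 TPM in LRP5-KO (-0.30, interval -0.61 to 0.01, limma adjusted p = 0.227). WT replicates 1 and 2 were higher than the rest, and WT replicate 3 was within the LRP5-KO range. Without it limma gave -0.44 (adjusted p = 0.0244, up to 0.960 across the alternatives). The retrogene copy Eif3j2 stayed at 0.0684 TPM or less in each library. Eif3f, with the long pyrimidine tract shown above, was at 43.1 to 59.6 TPM in WT and 52.6 to 58.2 TPM in LRP5-KO. The summed eIF3 level was 506.6 to 528.8 TPM in WT and 524.1 to 547.1 TPM in LRP5-KO.

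The cap-binding genes were led by the less common family members. Eif4e3, which binds the cap in an atypical way, was at 56.5, 54.0 and 51.8 TPM in WT and 52.3, 52.8 and 54.1 TPM in LRP5-KO. Eif4e2, which encodes 4EHP, a cap-binding protein that competes with eIF4E and represses translation, was at 53.9, 34.9 and 54.9 TPM in WT and 35.6, 34.5 and 34.8 TPM in LRP5-KO (chromosome 1, 89110489 to 89137063, plus strand, NCBIM37). Its log2 fold change of -0.42 was the most negative of all members (interval -0.80 to -0.03, limma adjusted p = 0.190), yet WT replicate 2 lay within the LRP5-KO range. The difference thus rested on WT replicates 1 and 3, and the adjusted p ran from 0.0815 to 0.388 across the alternatives. Canonical Eif4e was far lower than either at 6.82, 7.74 and 6.38 TPM in WT and 7.09, 7.60 and 8.57 TPM in LRP5-KO (0.13, interval -0.10 to 0.37, limma adjusted p = 0.444). Eif4e made up 5.65% to 8.0% of the 3 cap-binding genes in WT and 7.47% to 8.79% in LRP5-KO. Eif4enif1, the eIF4E transporter, was at 34.2 to 40.3 and 33.3 to 38.3 TPM, with overlap.

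In the helicase group, eIF4A with its cofactors eIF4B and eIF4H, 4 of 5 genes were positive, with a median of 0.08. Eif4a1 and Eif4a2, paralogues that both encode eIF4A, were at similar levels. Eif4a1 was at 100.4, 90.4 and 102.1 TPM in WT and 104.0, 98.2 and 112.2 TPM in LRP5-KO (0.10, interval -0.09 to 0.29). Eif4a2 was at 100.8, 92.8 and 79.1 TPM in WT and 89.4, 80.0 and 83.0 TPM in LRP5-KO (-0.10, interval -0.34 to 0.13). Both overlapped between the groups, and for Eif4a2 WT replicate 3 was the lowest of the 6 libraries. Eif4a3, the helicase of the exon junction complex rather than of initiation, was at 63.3, 63.0 and 65.7 TPM in WT and 66.4, 67.7 and 68.6 TPM in LRP5-KO, without overlap though the difference was small (0.08, interval -0.07 to 0.22). Eif4h was at 85.5 to 107.0 and 102.1 to 106.5 TPM and Eif4b at 54.0 to 59.2 and 56.2 to 61.0 TPM.

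Of the eIF4G scaffolds, Eif4g2 (DAP5), which lacks the eIF4E-binding site and serves cap-independent initiation, was the most abundant. It was at 173.7, 189.6 and 143.4 TPM in WT and 137.7, 140.6 and 194.5 TPM in LRP5-KO (-0.11, interval -0.47 to 0.26), so that the single highest library was LRP5-KO replicate 3. Eif4g3 was at 43.8, 38.4 and 52.5 TPM in WT and 48.9, 51.6 and 53.1 TPM in LRP5-KO (0.20, interval -0.07 to 0.46, limma adjusted p = 0.331). Without WT replicate 3 it was 0.31 (limma adjusted p = 0.0415, up to 0.842 across the alternatives), and against that library alone -0.04. Eif4g1, the canonical scaffold, was at 18.2, 19.1 and 22.3 TPM in WT and 21.3, 20.6 and 25.1 TPM in LRP5-KO (0.16, interval -0.09 to 0.41). Eif4g3 thus held 66.7% to 70.6% of the sum of both cap-linked scaffolds in WT and 67.9% to 71.5% in LRP5-KO, with overlap.

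Other factors act at the ribosome outside the initiation complexes. Eif6, which keeps free large subunits from joining small ones, was at 25.4, 31.3 and 34.9 TPM in WT and 29.6, 34.5 and 34.3 TPM in LRP5-KO (0.11, interval -0.18 to 0.40). Eif5a2, the paralogue of Eif5a found in few normal tissues, was at 0.0869 TPM or less in each library.

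Among the elongation factors, eEF1 had 5 genes tested with a median of 0.14 (0.01 without WT replicate 3), 4 positive and 1 negative, and none called. Eef1d, the delta subunit of the exchange factor that reloads eEF1A with GTP, had the most positive log2 fold change of all members on the log2(TPM + 1) scale over all 6 libraries (chromosome 15, 75725226 to 75739986, minus strand, NCBIM37). Its level was 15.5, 16 and 12.1 TPM in WT and 20.3, 19.0 and 17.7 TPM in LRP5-KO libraries, without overlap. The means were 14.6 ± 2.13 and 19.0 ± 1.30 TPM (SD, n = 3 each), a log2 fold change of 0.37 (interval 0.10 to 0.64, limma adjusted p = 0.139). Unlike most members, Eef1d in WT replicate 3 was farther from LRP5-KO than in the other WT libraries. Without it the value was 0.25 (limma adjusted p = 0.0651), the lowest adjusted p of its alternatives, which reached 0.351. Of the other exchange subunits, Eef1b2 was at 63.0, 85.1 and 48.5 TPM in WT and 64.1, 69.0 and 84.8 TPM in LRP5-KO, a wide overlap, and Eef1g at 44.1, 45.1 and 45 TPM in WT and 39.7, 40.7 and 44.2 TPM in LRP5-KO (-0.11, interval -0.27 to 0.06). Eef1e1, a component of the multi-tRNA synthetase complex grouped here by symbol, was at 1.11 to 1.76 TPM. Its log2 fold change of 0.14 was the median of the 5 genes. With the filter of 5 TPM, which left Eef1e1 out, the median was 0.09. Eef2, the translocase, was at 177.7, 195.4 and 236.2 TPM in WT and 200.9, 209.3 and 220.6 TPM in LRP5-KO (0.06, interval -0.19 to 0.31), the LRP5-KO libraries lying inside the WT range.

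The eEF1A methyltransferases Eef1akmt1 and Eef1akmt2 had values of opposite sign. Eef1akmt1 was at 4.17, 3.94 and 3.14 TPM in WT and 5.03, 5.45 and 4.35 TPM in LRP5-KO (0.33, interval 0.06 to 0.59, limma adjusted p = 0.162). Eef1akmt2 was at 7.92, 6.94 and 7.22 TPM in WT and 5.94, 6.85 and 5.59 TPM in LRP5-KO (-0.23, interval -0.45 to -0.01, limma adjusted p = 0.196). Neither overlapped between the groups. Eef2kmt and Eef1akmt3 were under 1 TPM.

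The WT libraries varied more than the LRP5-KO libraries for most members. The coefficient of variation was larger in WT for 38 of 51 members, with a median of 9.90% in WT and 4.41% in LRP5-KO, against 11% and 5.89% over all genes tested. For 34 members (66.7%) WT replicate 3 lay on the LRP5-KO side of both other WT libraries, as it did for 65.2% of all genes tested. The share was 10 of 13 for eIF3, 3 of 3 for eIF2 and for eIF4G and 1 of 5 for eEF1. With WT replicate 3 as the only WT library, the median log2 fold change of the members was -0.003, 30 of 51 kept their sign and 0 were called. With ribosomal reads as a covariate, 36 of 51 kept it and 0 were called. The part of ribosomal and intronic reads in these differences was not tested.

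**Figure D4:**
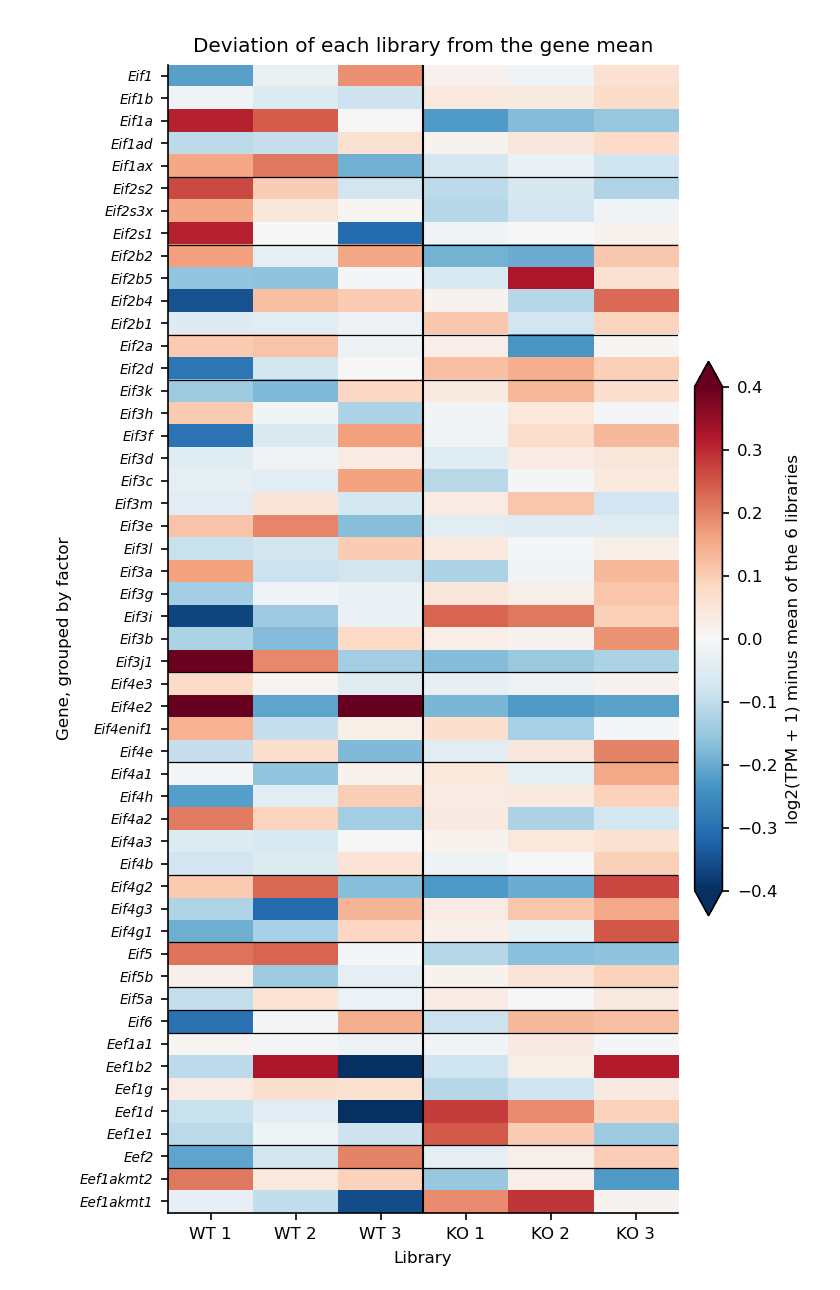
Deviation of log2(TPM + 1) in each library from the mean of the 6 libraries, for the 51 translation factor genes tested, ordered and ruled off by factor, with colours cut at 0.4 in either direction. WT 3 lies on the KO side of both WT 1 and WT 2 for 34 genes, among them Eif3k, Eif3j1 and Eif4g3, but not for Eef1d or Eif4e2.

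Differences of the members went with the GC content of their transcripts, as did those of all genes. Among the 17 members under 45% GC, a limit chosen after the values were seen, 13 were negative and 4 positive with a median of -0.11, against -0.12 over 2099 genes of that kind. Among the 33 at or above it, 28 were positive and 5 negative with a median of 0.09, against 0.07 over 6670 genes. Across genes, Spearman's correlation of log2 fold change with GC was 0.50 over the 50 members with a transcript in the annotation, 0.65 over the 13 eIF3 genes and 0.49 over 8769 genes, all measured in the same libraries. Eif1a (39.8% GC), Eif5 (41.1%) and Eif3j1 (42.5%) were at the low end, and Eif3i (52.9%) and Eef1d (56.1%) were above the middle. After removal of each library's trends with GC and length, the values were -0.15 for Eif1a, -0.13 for Eif5, 0.26 for Eif3i, 0.27 for Eef1d and -0.44 for Eif4e2, and 27 of 50 members were positive. For canonical Eif4e (40.3% GC) the value was 0.13 before and 0.34 after, with the smallest adjusted p of any member under that setting (limma adjusted p = 0.0981, 0.0981 to 0.777 across its alternatives). No member was called there, and the part of base composition in the differences was not tested.

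**Figure D5:**
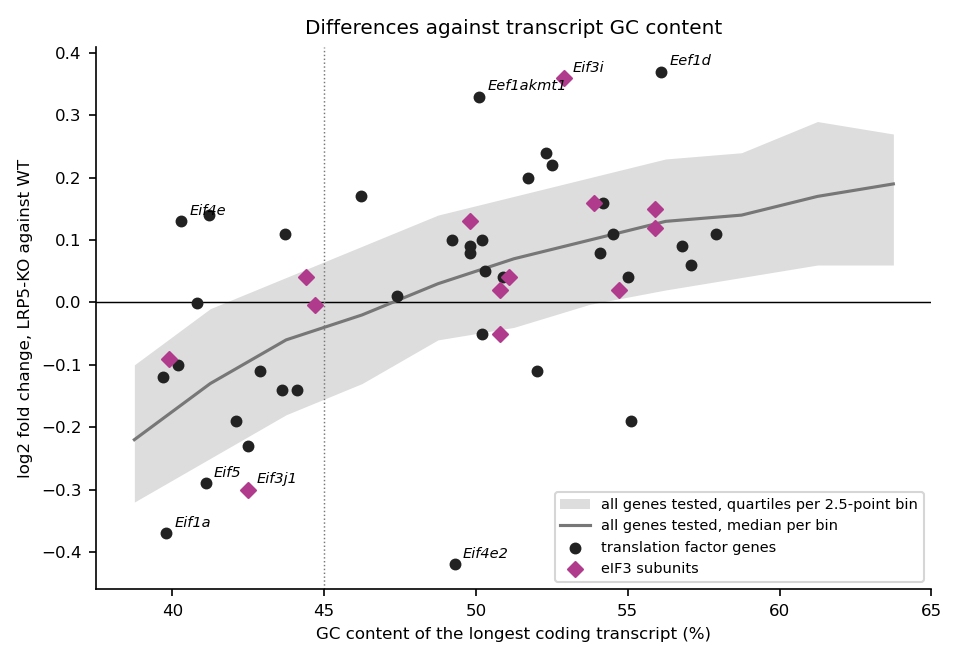
Log2 fold change (LRP5-KO against WT) of 50 translation factor genes against the GC content of their longest coding transcript, in percent, with eIF3 subunits as diamonds, the median and quartiles of all genes tested in bins of GC content in grey, and the limit of 45% dotted. The grey median runs from -0.22 in the lowest bin to 0.19 in the highest. Of the factor genes, 13 of 17 left of the dotted line are below 0 and 28 of 33 right of it above 0, with Eif4e2 below the grey band.

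Regulators that act on these factors were read from the same comparison, and of 49 tested none was called by limma over all 6 libraries. At an unadjusted p under 0.05 there were 9 (18.4%, against 23.5% of all genes), 4 higher and 5 lower, and 12 did not overlap between groups (24.5%, against 29.7% of all genes). Among the eIF2 kinases, Eif2ak2 (PKR), activated by double-stranded RNA, was at 27.3, 25.4 and 25.1 TPM in WT and 19.7, 21.5 and 20.9 TPM in LRP5-KO, without overlap (-0.31, interval -0.48 to -0.14, limma adjusted p = 0.0973). Its value was called in 2 alternatives, without WT replicate 3 and after removal of GC and length trends, with a lowest adjusted p of 0.0282 and a highest of 0.299 from limma. Eif2ak1 (26.2 to 30.8 TPM) and Eif2ak3 (27.4 to 34.0 TPM) overlapped between groups, and Eif2ak4 was under 1 TPM. Atf4, the transcription factor translated when eIF2 is phosphorylated, was at 155.4, 164.6 and 183.4 TPM in WT and 188.3, 184.4 and 200.2 TPM in LRP5-KO (0.19, limma adjusted p = 0.210, and 0.0398 without WT replicate 3, up to 0.704 across alternatives). The 7 genes of this group that were tested had a median of 0.08 (-0.02 against WT replicate 3 alone).

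A further list held mTORC1 subunits and kinases, binding proteins and other genes linked to its control of translation. Of 13 tested, 11 were positive, where 58.8% of all genes tested were, with a median of 0.07 (-0.05 against WT replicate 3 alone). The list mixes genes that further translation with genes that hold it back, so the count of positive values has no single meaning. Rptor, the substrate-binding subunit of mTORC1, was at 1.69, 1.92 and 1.92 TPM in WT and 2.65, 2.42 and 2.58 TPM in LRP5-KO (0.32, interval 0.14 to 0.51, limma adjusted p = 0.103). Larp1, the protein that holds TOP mRNAs when mTORC1 is inactive, was at 5.05, 5.52 and 6.36 TPM in WT and 7.0, 7.52 and 7.84 TPM in LRP5-KO (0.35, interval 0.13 to 0.58, limma adjusted p = 0.119). Neither overlapped between groups, and without WT replicate 3 the limma adjusted p was 0.0398 for Rptor (up to 0.357 across alternatives) and 0.0218 for Larp1 (up to 0.375). Mtor itself was at 4.48 to 7.11 TPM in WT and 5.05 to 7.05 TPM in LRP5-KO (0.03). The eIF4E-binding protein genes Eif4ebp1 (-0.11) and Eif4ebp2 (0.15) and the eEF2 kinase Eef2k (0.07) overlapped between groups. After removal of GC and length trends Eif4ebp1 was called (-0.26, limma adjusted p = 0.0468, up to 0.851 across alternatives).

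Of 8 partners of the cap-binding complex, 6 were negative, where 58.8% of all genes tested were positive. Their median was -0.11 (-0.07 against WT replicate 3 alone). Ddx3x, an RNA helicase of the scanning step, was at 416.9, 345.5 and 333.5 TPM in WT and 254.1, 278.9 and 276.4 TPM in LRP5-KO, without overlap (-0.43, interval -0.65 to -0.21, limma adjusted p = 0.0892). It had the largest difference among these regulators on the log2(TPM + 1) scale (with a pseudocount of 0.1, Rptor was at 0.45 and Ddx3x at -0.43) and was called in 2 alternatives, without WT replicate 3 and after removal of GC and length trends (limma adjusted p from 0.0211 to 0.281 across alternatives). Pabpc1, the poly(A)-binding protein that bridges the mRNA tail to eIF4G, was at 340.9, 285.1 and 287.4 TPM in WT and 244.6, 259.1 and 270.5 TPM in LRP5-KO (-0.23, interval -0.44 to -0.03, limma adjusted p = 0.176). For Ddx3x and Pabpc1, the 2 of smallest p in this list, the libraries stood apart by group. LRP5-KO was the lower for both, as it was for 12.3% of all genes tested.

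The enzymes that make the hypusine of eIF5A were both higher without overlap, Dhps at 11.2, 12.3 and 13.9 TPM in WT and 15.5, 14.6 and 14.2 TPM in LRP5-KO (0.23, limma adjusted p = 0.195, and 0.0409 without WT replicate 3, up to 0.660 across alternatives) and Dohh at 3.10, 3.22 and 3.08 and 4.04, 3.42 and 3.71 TPM (0.19, limma adjusted p = 0.214). Dhps and Dohh were the 2 of smallest p in their list, and 17.4% of all genes tested were higher without overlap. Against WT replicate 3 alone Dhps was at 0.08 and Dohh at 0.21. The 4 genes tested of hypusine and diphthamide synthesis had a median of 0.10. The termination factors were both lower without overlap, Etf1 (eRF1) at 95, 83 and 70.8 TPM in WT and 66.3, 68.5 and 70.1 TPM in LRP5-KO (-0.27, limma adjusted p = 0.195, and 0.0249 without WT replicate 3, up to 0.723 across alternatives) and its partner Gspt1 (eRF3a) at 11.3, 10.4 and 9.95 and 9.60, 8.59 and 8.49 TPM (-0.22, limma adjusted p = 0.178). Etf1 and Gspt1 were the 2 of smallest p in their list, and 12.3% of all genes tested were lower without overlap. Against WT replicate 3 alone Etf1 was at -0.05 and Gspt1 at -0.15. In the same list Efl1 was higher without overlap (0.14). The 9 genes tested of release and recycling had a median of -0.06 (0.13 against WT replicate 3 alone), and the 8 mitochondrial translation factors tested one of -0.04 (0.0021 against it) with 0 genes under an unadjusted p of 0.05. Those of smallest p among the latter were Gfm1, at 3.28, 2.93 and 3.49 TPM in WT and 3.42, 3.70 and 4.16 TPM in LRP5-KO (0.17, interval -0.05 to 0.39), and Mtrf1l, at 1.74, 1.26 and 1.35 and 1.66, 1.66 and 1.72 TPM (0.14, interval -0.09 to 0.36).

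The libraries carried the markers of neutrophils, S100a8 and S100a9 at 106912 to 230639 TPM and Ly6g, Csf3r and Cxcr2 at 669.5 to 1218 TPM. Of 8 such genes, 3 were positive and 5 negative, with a median of -0.07 (-0.10 against WT replicate 3 alone). Without overlap, 1 was higher in LRP5-KO (S100a9) and 2 lower (Cxcr2 and Mmp8), against 17.4% and 12.3% of all genes. None was called, and Mmp8 was at -0.41 (limma adjusted p = 0.0648, and 0.0181 without WT replicate 3). Of 11 genes of immature neutrophils, 10 were positive with a median of 0.23 (0.10 against WT replicate 3 alone), 6 were higher in LRP5-KO without overlap (against 17.4% of all genes) and 0 were called (against 0.532%). Camp among them was at 0.35 (limma adjusted p = 0.0648, and 0.0175 without WT replicate 3). Ngp, the most abundant of the 11 and the 1 negative gene, was at -0.14. The summed level of the 11 genes, mostly Ngp, Camp and Ltf, was 62764 to 67738 TPM in WT and 64549 to 67500 TPM in LRP5-KO, while the precursor enzymes Mpo, Elane, Prtn3 and Ctsg were at 5.76 TPM or less in each library. Summed markers of other cells were low, at 10.2 to 11.8 TPM for B cells and 37.3 to 49.5 TPM for monocytes and macrophages in both groups together. Those of T cells were 10.3 to 11.3 TPM in WT and 14 to 15.2 TPM in LRP5-KO, nearly all Cd3d, with Cd3e at 0.180 TPM or less. Eosinophil markers summed to 8.16 to 9.90 TPM in WT and 11.1 to 11.9 TPM in LRP5-KO. One of these genes, Prg2, was called (0.91, limma adjusted p = 0.0341, from 0.0123 to 0.178 across alternatives), at 0.850 to 1.16 and 2.33 to 3.13 TPM. Siglecf, most of the eosinophil sum, was at 7.31 to 8.77 TPM in WT and 8.04 to 8.69 TPM in LRP5-KO (0.03), with overlap. Epx was at 0.141 TPM or less in each library. Erythroid markers summed to 47.5 to 56.4 and 41.6 to 53.3 TPM and megakaryocyte markers to 1.27 to 2.21 and 1.89 to 2.06 TPM. The part of cell composition in the differences of the translation factors was not tested.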

How the data were processed

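Bone marrow neutrophils were sequenced as 3 WT and 3 LRP5-KO libraries, grouped by their titles. The authors deposited a table of TPM and a read summary with read counts per library and shares of reads in percent. Per the methods, reads were aligned to mm9 and genes compared with DESeq2, while the tool that gave TPM is not given in the sources used here. The labels name a Percoll gradient and an mRNA kit, and the methods a sort of CD11b and Ly6G positive cells and a stranded total RNA kit.

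TPM keeps no counts, so limma 3.58.1 (R 4.3.3) with a mean-variance trend was used on log2(TPM + 1), a scale that understates changes of low genes, over the 9775 genes that averaged 1 TPM or more, without covariates. A call is a Benjamini-Hochberg adjusted p under 0.05, and intervals are 95% intervals of the fit. With 3 libraries against 3, an exact permutation test of 1 gene cannot go below 0.1. The fit was also run on simulated data with independent noise in each gene. Such data hold no shift that genes share within a library, so they do not show how the fit handles WT replicate 3. Whether replicate numbers pair the libraries is not settled. Correlations of deviations were 0.229, -0.0075 and 0.131 between same-numbered libraries and -0.213 to 0.0834 between the others. The main fit used no block, and a fit with a block is among the alternatives.

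Values in every library are given for the 3 members of highest TPM, the 8 of smallest p, paralogue sets, the highest member of each factor, and of each regulator list the 2 of smallest p. Others were named after their values were seen. The members and lists were chosen with earlier results of these data known. GC content came from the longest coding transcript in GENCODE M1 (NCBIM37), for 89.7% of genes tested. Promoters are from RefSeq. Alternatives were another pseudocount (0.1), other filters (none, or 5 TPM) and scalings, no trend, a replicate block, each library left out, WT replicate 3 alone, the ribosomal share as a covariate and removal of GC and length trends.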

Additional observations from a re-analysis of the deposited data

How the results depend on the processing

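The 8 members of smallest p kept their direction under all 16 alternatives (15 for Eef1akmt1, under 5 TPM on average). They were picked by p in the same libraries that the alternatives reuse, so this is no independent support for them. Leaving aside WT replicate 3 alone, 0 members were called under any alternative except without WT replicate 3, where 7 were. WT replicate 3 alone against the LRP5-KO libraries, the ribosomal covariate and taking out GC and length trends were choices that earlier results of these data had prompted, and the last leaves out genes without a transcript. Genes called among all tested were 52, against 3 without a filter, 29 at 5 TPM, 96 after rescaling without mitochondrially encoded and the 20 most abundant genes, 4 with the replicate block, 6 against WT replicate 3 alone, 6 with the ribosomal covariate, 430 after removal of GC and length trends and 2 to 1920 with a library left out (1920 without WT replicate 3). With the block, members called stayed at 0, and not every library correlated best with its own number. Lyz2 was no longer called without a filter (limma adjusted p = 0.123, from 0.000969 across its alternatives). Regulators called were 3 of 49 after removal of GC and length trends, against 430 of 8769 genes tested there. With a library left out, 0 to 9 of 49 regulators were called. The 9 were without WT replicate 3, where 19.6% of all genes tested were called. Where the cause of a change below is not given by the construction, the cause was not tested. With GC and length trends removed, medians were 0.02 for eIF4A, eIF4B and eIF4H, -0.01 for eIF5 and eIF5B, -0.07 for eIF5A and 0.21 for eEF1, 35 of 50 members kept their sign, and the genes that turned included Eef2 (-0.06), Eef2k (-0.03), Eif1 (-0.02), Eif2s1 (0.18), Eif3g (-0.02), Eif4a2 (0.10), Eif4a3 (-0.02), Eif5a (-0.07), Eif6 (-0.03) and Mtor (-0.16). Against WT replicate 3 alone, medians were -0.01 for eIF1 and eIF1A, -0.0039 for eIF3, -0.003 for eIF4G and for all members, -0.02 for eIF5 and eIF5B, -0.09 for eIF6 and -0.17 for eEF2, 30 of 51 members kept their sign, and the genes that turned included Eef2 (-0.17), Eef2k (-0.13), Eif1 (-0.16), Eif2s1 (0.31), Eif3b (-0.01), Eif3k (-0.0039), Eif4a2 (0.09), Eif4ebp2 (-0.06), Eif4g1 (-0.003), Eif4g2 (0.12), Eif4g3 (-0.04), Eif6 (-0.09) and Mtor (-0.24). With the ribosomal covariate, medians were 0.03 for eIF4A, eIF4B and eIF4H and -0.10 for eEF2, 36 of 51 members kept their sign, and the genes that turned included Eef2 (-0.10), Eef2k (-0.07), Eif1 (-0.10), Eif2s1 (0.21), Eif4a2 (0.03), Eif4ebp2 (-0.0031), Eif4g2 (0.02), Eif6 (-0.04) and Mtor (-0.16). Median-ratio scaling, which took the median of all genes from 0.04 to 0.0032, gave medians of -0.0021 for eIF1 and eIF1A, -0.0027 for eIF3, 0.03 for eIF4A, eIF4B and eIF4H and 0.0017 for all members, log2 ratios of summed TPM of 0.02 for eIF3, 0.0026 for eIF4A, eIF4B and eIF4H and -0.02 for eEF1, 45 of 51 members kept their sign, and the genes that turned included Eef1a1 (-0.03), Eif1 (-0.0021), Eif5a (-0.00086) and Mtor (-0.0027). The median was 0.09 for eEF1 and -0.23 for the methyltransferases at 5 TPM, 0.18 for eEF1 with the pseudocount of 0.1, and 0.07 for eIF3 and 0.19 for eEF1 after rescaling. In these last 2 settings Eif2s1 was at 0.0024 and 0.03. With each library left out, medians ran from -0.06 to 0.08 for eIF1 and eIF1A, 0.01 to 0.05 for eIF3, 0.03 to 0.10 for eIF4A, eIF4B and eIF4H, 0.01 to 0.16 for eEF1 and 0.02 to 0.08 for all members, and the values that turned ran from -0.0007 to 0.02 for Eef1a1, -0.03 to 0.17 for Eef2 and for Eef2k, -0.06 to 0.14 for Eif1, -0.15 to 0.15 for Eif2s1, -0.01 to 0.21 for Eif6 and -0.11 to 0.17 for Mtor. TPM keeps no depth, so what depth limits for single genes could not be computed.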

Other observations

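Eif2s3x, the X-linked gene of the gamma subunit of eIF2, and its Y-linked homologue Eif2s3y, which is not among the members, were both expressed in these libraries. Eif2s3y was at 26.5, 21.1 and 17.2 TPM in WT and 32.6, 26.3 and 28.7 TPM in LRP5-KO libraries (limma log2 fold change 0.43, interval 0.07 to 0.79, adjusted p = 0.163), with overlap. After removal of GC and length trends the value was 0.65 and limma called it (adjusted p = 0.0215, up to 0.366 across its alternatives). Eif2s3x made up 43.8%, 47.6% and 51.9% of the sum of both in WT and 34.3%, 39.9% and 39.0% in LRP5-KO libraries, without overlap. The sum itself was 35.7 to 47.2 TPM in WT and 43.8 to 49.6 TPM in LRP5-KO, with overlap.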
